A study of Homo sapiens with 12 samples.

Results

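The alpha-arrestins *TXNIP*, *ARRDC1*, *ARRDC2*, *ARRDC3* and *ARRDC4* were followed in HEK293 cells, a human embryonic kidney line, after transfection with fragments of PEG10. These 5 genes are 5 of the 26485 rows of the count table, and all 5 passed the filter on low counts that 17176 genes passed. The family was chosen by values in these same libraries, since *TXNIP* had been seen higher with every PEG10 construct than with control and *ARRDC3* lower with nucleocapsid (NC). The differences of *TXNIP* and *ARRDC3* from control, and those of *ARRDC3* between NC and the other constructs, are therefore given as descriptions with no test, while *ARRDC1*, *ARRDC2* and *ARRDC4* entered by family name and were tested.

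PEG10 is a protein derived from a domesticated retrotransposon, and its gag-pol form can cut itself to release NC. Wild-type HEK293 cells received a plasmid for HA-tagged gag-pol, for gag (the shorter product, without pol), for NC (the zinc finger piece at the end of gag) or, as control, for LifeAct-Dendra2, a fluorescent protein that labels actin. A CMV promoter drove the constructs, so the amounts are those of overexpression, and the cells keep their own *PEG10*. There were 12 libraries, 3 replicates per construct, numbered 1 to 3. The paper calls them biological replicates. The methods name harvest date as a variable, but what a replicate number stands for was not given in the sources used here. Poly(A) RNA was sequenced, with 30625725 to 45316749 counts per library. Values below are normalized counts, meaning counts scaled to one library size, unless CPM per kb (the share of a library's counts per kb of exon, scaled as CPM) is named. *PEG10* itself took 0.023% to 0.0346% of the counts of control libraries. Its share was 2.8% to 7.35% in gag-pol libraries, 3.78% to 6.1% in gag libraries and 0.238% to 0.389% in NC libraries, so every PEG10 library exceeded control. The kidney-lineage genes *PAX2* (503 to 883 counts) and *LHX1* (161 to 401) and the neurofilament genes *NEFL* (2916 to 12577) and *NEFM* (41 to 119), all known from HEK293 cells, were detected in every library.

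Alpha-arrestins are adaptor proteins. Most carry PPxY motifs in their tail that bind ubiquitin ligases of the NEDD4 family, and through these they direct receptors and transporters on the cell surface to endocytosis. TXNIP also binds and inhibits thioredoxin, and TXNIP and ARRDC4 both lower glucose uptake. Both genes are classic targets of MondoA (*MLXIP*) and ChREBP (*MLXIPL*), transcription factors that pair with MLX, respond to glucose phosphates and bind carbohydrate response elements, which are made of a pair of E box-like motifs a few bases apart. *TXNIP* and *ARRDC4* are thus widely used as readouts of intracellular glucose phosphate. ARRDC3 takes part in the turnover of the beta-2 adrenergic receptor and of integrin beta-4, and ARRDC1 recruits the ESCRT protein TSG101 to bud vesicles from the plasma membrane.

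The 5 genes lie on 5 chromosomes, and the canonical transcript of each has 8 exons. In GENCODE 44 on GRCh38, *TXNIP* (ENSG00000265972.6) lies at chr1:145992435-145996579 on the minus strand, and *ARRDC4* (ENSG00000140450.9) at chr15:97960703-97973833 on the plus strand. *ARRDC3* (ENSG00000113369.9) lies at chr5:91368631-91383317 on the minus strand, *ARRDC2* (ENSG00000105643.11) at chr19:18001132-18014102 on the plus strand and *ARRDC1* (ENSG00000197070.14) at chr9:137605685-137615360 on the plus strand. Coding lengths ran from 1173 bases in *TXNIP* to 1299 bases in *ARRDC1*. Whether reads were counted by strand was not given in the sources used here. *ARRDC3* shares 145 exon bases with its antisense gene *ARRDC3-AS1*, *ARRDC1* shares 35 with *ARRDC1-AS1* and 183 with a further gene on its own strand, and *ARRDC2* shares 442 with an unnamed transcript on the other strand, so part of their counts could come from these. *TXNIP* and *ARRDC4* share no exon bases with another gene.

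The promoters of *TXNIP* and *ARRDC4*, the glucose-responsive pair, and of *ARRDC3*, which lay on the other side of control, are shown because these 3 genes had the largest differences from control among the members. Each runs from 250 bases before to 50 bases after the transcript start, 5′ to 3′ on the gene's strand (RefSeq, GRCh38.p14). They are chr1:145996530-145996829 for *TXNIP*, chr15:97960453-97960752 for *ARRDC4* and chr5:91383268-91383567 for *ARRDC3*. Capitals mark matches to the motifs named after them.
TXNIP: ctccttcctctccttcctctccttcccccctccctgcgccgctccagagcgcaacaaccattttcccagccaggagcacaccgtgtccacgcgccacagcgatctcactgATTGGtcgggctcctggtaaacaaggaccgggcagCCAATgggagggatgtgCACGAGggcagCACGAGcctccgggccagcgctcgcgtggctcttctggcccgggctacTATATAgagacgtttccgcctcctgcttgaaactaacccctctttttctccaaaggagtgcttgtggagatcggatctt
ARRDC4: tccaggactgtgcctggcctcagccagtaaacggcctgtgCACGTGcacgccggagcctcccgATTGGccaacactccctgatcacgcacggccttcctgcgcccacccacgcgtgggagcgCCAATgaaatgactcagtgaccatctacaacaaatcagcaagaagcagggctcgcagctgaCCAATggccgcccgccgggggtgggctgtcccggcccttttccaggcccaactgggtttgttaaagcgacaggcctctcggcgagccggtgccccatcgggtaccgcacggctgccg
ARRDC3: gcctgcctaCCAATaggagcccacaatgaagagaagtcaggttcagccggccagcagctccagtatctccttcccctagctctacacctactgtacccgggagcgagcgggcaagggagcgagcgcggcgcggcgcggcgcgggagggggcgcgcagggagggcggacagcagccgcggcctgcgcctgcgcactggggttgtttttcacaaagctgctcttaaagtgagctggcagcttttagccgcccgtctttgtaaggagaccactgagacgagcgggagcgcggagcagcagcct

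The motifs named here were searched on both strands, and positions are those of a match's first base counted from the start. *TXNIP* held CACGNG followed after 5 bases by a second CACGNG, read as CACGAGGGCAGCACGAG at -88, which 0.057% of 35116 promoters of this length hold. It also held TATATA at -29 (3.99% of promoters) and CCAAT at -140 and -105, the first of these on the other strand. These pair and TATATA motifs were added to the search after the *TXNIP* sequence had been seen. *ARRDC4* held CACGTG, the perfect E box, at -210 (7.26% of promoters) and CCAAT 3 times, at -187 on the other strand, -128 and -67 (34.6% of promoters hold at least one). *ARRDC3* held CCAAT at -241 and none of the other motifs. The promoters of *ARRDC1* and *ARRDC2* each held CCAAT on the other strand, at -80 and -93, and that of *ARRDC2* had TATAA at -30 (20.4% of promoters). CANGNG and CNCNTG with 5 bases between, a pair that 0.564% of promoters hold, was in none of the 5. CACGTG also fits either side of the CACGNG pair and CANGNG, but no match in these promoters overlapped another. A match is a string of letters and not a shown binding site.

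*TXNIP* was higher than control with every construct, 2.1-fold with gag-pol, 1.99-fold with gag and 1.57-fold with NC. In bulk RNA a change in every cell and a larger one in the transfected cells alone cannot be told apart. Control libraries of replicates 1, 2 and 3 had 539.7, 709.9 and 550.5 normalized counts. With gag-pol they had 1298, 1395 and 1081, with gag 1266, 1307 and 1000, and with NC 863.4, 1180 and 797.8. Every PEG10 library lay above every control library. Here and below, how many of all genes have libraries apart in this way was not counted, so such statements only describe the values. Group means were 600 ± 95.3 (SD, n = 3) for control, 1258 ± 161 for gag-pol, 1191 ± 167 for gag and 947.2 ± 205 for NC. On the log2 scale gag-pol differed from control by 1.07, gag by 0.99 and NC by 0.65, each with an SE of 0.1, and these are the values that chose the gene. For scale, they ranked 132, 227 and 490 from the highest of 17176 genes.

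Between the constructs, *TXNIP* was lower with NC than with gag in all 3 replicates. The log2 difference was -0.34 (SE 0.1, adjusted p = 0.025, edgeR quasi-likelihood test with Benjamini-Hochberg adjustment over all genes tested, as for every adjusted p below), though the groups overlap because gag replicate 3 (1000) lies below NC replicate 2 (1180). NC also lay lower than gag-pol in 3 of 3 replicates, by -0.42 (95% interval -0.63 to -0.21), but this did not pass the adjusted threshold of 0.05 (adjusted p = 0.1). Gag-pol and gag differed by 0.08 (-0.13 to 0.29, adjusted p = 0.68), so a difference of more than 0.29 lay outside the interval. For NC against gag 8.76% of all genes were called higher and 8.12% lower, and for NC against gag-pol 0.00582% and 0.0815%. The NC to gag difference of *TXNIP* is not firm: its adjusted p was 0.059 with only the 6 libraries compared, 0.51 without the replicate term, 0.19 and 0.05 (rounded) when gag replicates 1 and 3 were left out, 0.15 and 0.085 when NC replicates 1 and 3 were, and 0.38 without all of replicate 1, with values from -0.37 to -0.22. *PEG10* took 0.238% to 0.389% of counts in NC libraries against 3.78% to 6.1% in gag libraries, and its part in the difference was not tested. These shares were not divided by insert length, and the NC insert is only a piece of gag, so they do not compare doses.

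*ARRDC4*, the closest companion of *TXNIP* in function, rose with all 3 constructs, but in another order. Control libraries had 1992, 3826 and 1717 normalized counts in replicates 1, 2 and 3, against 3669, 5652 and 3602 with gag-pol, 2991, 4474 and 2240 with gag and 3731, 5729 and 3495 with NC. Replicate 2 stood high in all 4 groups, so the groups overlap, while within each replicate number control was the lowest of the 4 libraries. Within replicates the fold over control was 1.48 to 2.1 for gag-pol, 1.17 to 1.5 for gag and 1.5 to 2.04 for NC. Fitted log2 differences were 0.83 with gag-pol (SE 0.092, adjusted p = 1.1e-05), 0.39 with gag (adjusted p = 0.033) and 0.83 with NC (adjusted p = 2.6e-05). Of all genes, 5.48% were called higher in gag-pol, 0.699% in gag and 6.04% in NC libraries. All comparisons with control share the same 3 control libraries.

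These calls of *ARRDC4* rest on the replicate number as a term: without it the adjusted p was 0.62 for gag-pol, 1 for gag and 0.68 for NC, at log2 differences of 0.78, 0.36 and 0.78. The rise with gag was also lost without control replicate 1 (0.34, adjusted p = 0.3), control replicate 3 (0.33, 0.08), gag replicate 1 (0.32, 0.44), gag replicate 2 (0.39, 0.12) or NC replicate 1 (0.39, 0.051), and without all of replicate 1 (0.29, 1), whereas those with gag-pol and NC held without any single library.

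Compared with gag, *ARRDC4* was higher with NC by 0.44 (SE 0.091, adjusted p = 0.003) and with gag-pol by 0.44 (adjusted p = 0.0076), in 3 of 3 replicates each. Gag-pol and NC did not differ detectably (0.00, 95% interval -0.19 to 0.18, adjusted p = 1). In the main fit *TXNIP* and *ARRDC4* thus moved in opposite directions between gag and NC: with NC, *TXNIP* was lower and *ARRDC4* higher. The *TXNIP* part of this is not firm, as given above. Of all genes, 3.03% were called higher and 3.42% lower with gag-pol than with gag. Both comparisons use the same 3 gag libraries. Without the replicate term the adjusted p of *ARRDC4* was 0.64 for NC against gag and 0.81 for gag-pol against gag. The gag-pol to gag difference was lost without gag-pol replicate 3 (0.35, adjusted p = 0.073), gag replicate 3 (0.36, 0.056), all of replicate 1 (0.53, 0.099) or all of replicate 3 (0.32, 0.053). As a description, the count of *ARRDC4* relative to *TXNIP* within a library was 3.12 to 5.39 in control, 2.83 to 4.05 in gag-pol, 2.24 to 3.42 in gag and 4.32 to 4.85 in NC libraries.

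**Figure D1:**
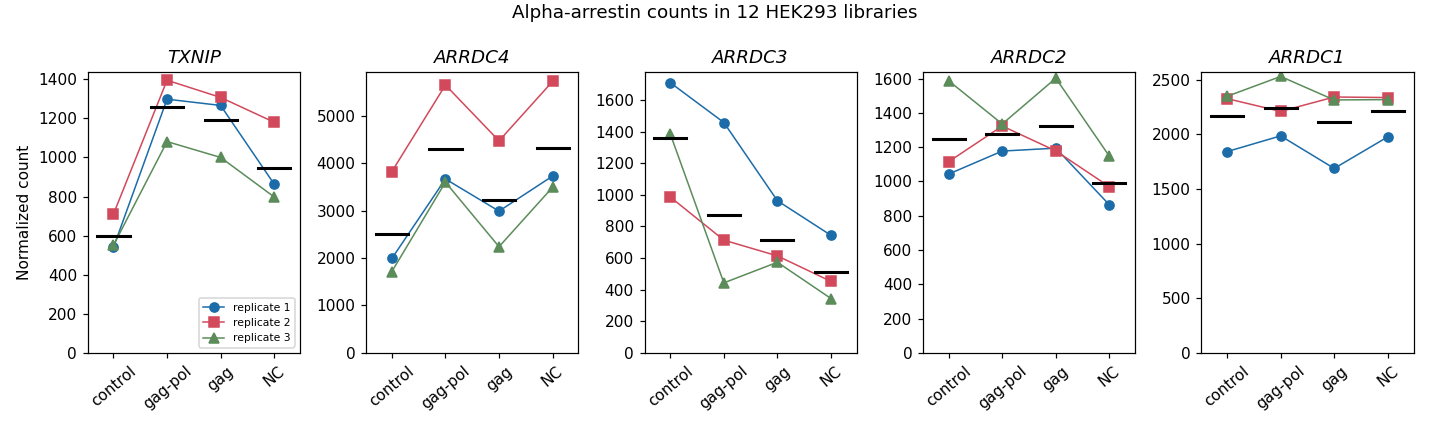
Normalized counts (vertical axis, starting at 0, with its own scale in each panel) of the 5 alpha-arrestins in the 12 libraries, by construct, with points and lines by replicate number and a black bar for the mean of 3. *TXNIP* is above control in every PEG10 library, and *ARRDC4* has replicate 2 on top in every construct. Within each replicate number *ARRDC3* is highest in control and *ARRDC2* is lowest with NC. The means of *ARRDC1* lie between 2116 and 2243.

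*ARRDC3* lay below control with all 3 constructs, most of all with NC. Control libraries had 1709, 985.8 and 1385 normalized counts, gag-pol libraries 1457, 713.1 and 442.8, gag libraries 962.3, 613.5 and 573.2 and NC libraries 743.4, 452 and 343.8. Within each replicate number control was the highest and NC the lowest of the 4 libraries. All gag and NC libraries lay below all control libraries, while gag-pol overlapped control through its replicate 1. Group means were 1360 ± 362 (SD, n = 3) for control, 871.1 ± 525 for gag-pol, 716.3 ± 214 for gag and 513.1 ± 207 for NC. Against control the log2 difference was -0.77 for gag-pol, -0.95 for gag and -1.46 for NC (SE 0.22 each), the last placing *ARRDC3* at rank 197 from the lowest of 17176 genes. Of all genes, 5.83% were called lower in gag-pol, 0.384% in gag and 5.15% in NC libraries. Since the difference with NC chose this gene, nothing is read from these shares.

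*ARRDC3* with gag-pol had the widest spread of any member and construct, a coefficient of variation of 60.3%, with a fold over control of 0.853, 0.723 and 0.32 in replicates 1, 2 and 3. Control replicate 3 weighs on the value with gag: without it the difference of *ARRDC3* was -0.63. With gag-pol, leaving out 1 library or replicate number at a time gave differences from -1.05 to -0.35. NC lay below gag by -0.51 and below gag-pol by -0.70, in 3 of 3 replicates each, again as a description. Gag-pol against gag was tested and did not pass (0.19, 95% interval -0.30 to 0.68, adjusted p = 0.66), an interval wide enough to hold changes of either sign.

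The antisense gene *ARRDC3-AS1*, a long noncoding RNA, was called lower than control by a log2 difference of -1.10 with gag (SE 0.27, adjusted p = 0.0444) and -0.82 with NC (SE 0.26, adjusted p = 0.0477). Both calls are close to the threshold. With single libraries or whole replicate numbers removed in turn (15 fits), 10 lost the call with gag. With NC, *ARRDC3-AS1* was 1 of 2 called genes among the antisense and neighbouring genes of the family. In 13 of these fits at least 1 of the 2 calls was lost, and which of them was not counted. Its normalized counts were 127.1 ± 32.2 (SD, n = 3) in control, 78.02 ± 32.8 in gag-pol, 61.67 ± 22.3 in gag and 74.43 ± 23.7 in NC libraries. These are far below the counts of *ARRDC3*, and the part of shared reads in either value was not tested.

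*ARRDC2*, a less studied relative of *ARRDC3*, was lowest with NC. Normalized counts were 1043, 1115 and 1587 in control, 1177, 1323 and 1335 with gag-pol, 1194, 1178 and 1602 with gag and 863.4, 969.2 and 1147 with NC. NC had the lowest library of each replicate number, and it did not overlap gag or gag-pol, but did overlap control. Against control it fell with NC by -0.32 on the log2 scale (SE 0.1, adjusted p = 0.042), lower in 3 of 3 replicates. With gag-pol (0.06, adjusted p = 0.76) and gag (0.09, adjusted p = 0.75) it did not pass, and the 95% intervals ran from -0.15 to 0.26 and from -0.11 to 0.30. NC against gag gave -0.41 (SE 0.1, adjusted p = 0.0076), gag-pol against gag -0.04 (adjusted p = 0.87) and NC against gag-pol -0.37 (-0.58 to -0.17, adjusted p = 0.15). Of all genes, 5.15% were called lower with NC than with control, 8.12% lower than with gag and 0.0815% lower than with gag-pol. The share of all genes whose libraries do not overlap was not counted, so the lack of overlap of *ARRDC2* only describes its values.

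The fall of *ARRDC2* with NC against control lies close to the threshold. It was lost without any one of control replicates 1, 2 or 3, gag-pol replicate 1, gag replicates 1 or 3 or NC replicates 1, 2 or 3, and without all of replicate 1, 2 or 3, with adjusted p from 0.051 to 0.28 and values from -0.37 to -0.22, and without the replicate term (adjusted p = 0.68). The difference from gag was lost without gag replicate 1 (-0.39, adjusted p = 0.055), without all of replicate 1 (-0.37, 0.14) and without the replicate term (-0.42, 0.44), and that from gag-pol passed without gag-pol replicate 3 (-0.49, adjusted p = 0.015) or without all of replicate 3 (-0.44, 0.031).

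*ARRDC1*, the vesicle-budding member, did not pass the test in any comparison of constructs. Its normalized counts were 1843, 2328 and 2349 in control, 1987, 2211 and 2531 with gag-pol, 1689, 2343 and 2316 with gag and 1978, 2338 and 2319 with NC. Replicate 1 was the lowest of its group each time. Against control the log2 difference was 0.05 for gag-pol (95% interval -0.12 to 0.22, adjusted p = 0.75), -0.04 for gag (-0.21 to 0.13, 0.88) and 0.03 for NC (-0.14 to 0.20, 0.86). Gag-pol against gag gave 0.09 (adjusted p = 0.54), NC against gag 0.07 (0.6) and NC against gag-pol -0.02 (0.97). Differences of more than 0.22 from control in either direction thus lay outside all 3 intervals.

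**Figure D2:**
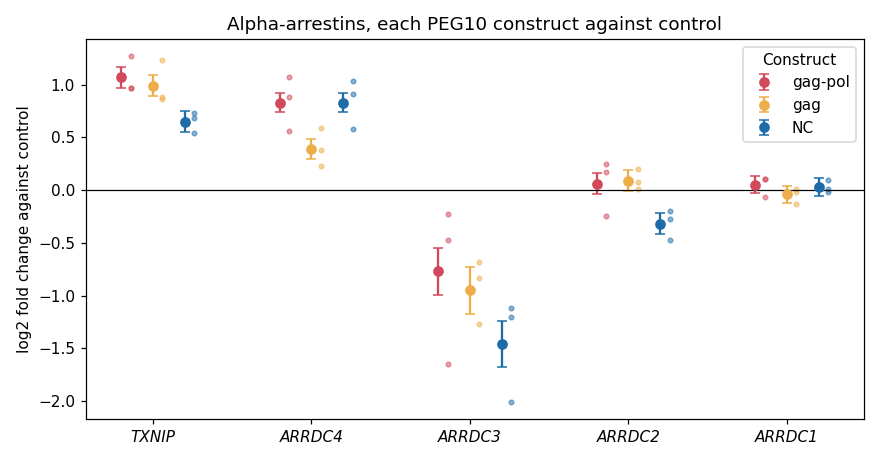
Log2 fold change against control (vertical axis, 0 marked by a line) for the 5 alpha-arrestins, with the fitted value and its SE as a large point with a bar and the 3 replicate pairs as small points, coloured by construct. *TXNIP* has 1.07 and 0.99 with gag-pol and gag and 0.65 with NC, *ARRDC4* has 0.83 with gag-pol and NC and 0.39 with gag, and *ARRDC3* reaches -1.46 with NC.

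*ARRDC1*, *ARRDC2*, *ARRDC3* and *ARRDC4* each differed between at least 1 pair of replicate numbers. Each replicate number had 4 libraries, 1 of each construct. Such differences were common: 15.9% of all genes were called higher and 14.7% lower in replicate 2 than in replicate 1, 20.6% higher and 21% lower in replicate 3 than in replicate 1, and 12.9% higher and 14.1% lower in replicate 3 than in replicate 2. *ARRDC4* was higher in replicate 2 than in replicate 1 by a log2 difference of 0.69 (SE 0.079, adjusted p = 1.6e-06) and lower in replicate 3 than in replicate 2 by -0.88 (adjusted p = 1.8e-07). Its 4 libraries of replicate 2 had 3826 to 5729 normalized counts, above all 8 others. Replicates 3 and 1 differed by -0.18 (adjusted p = 0.066).

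A difference of *TXNIP* between replicates had been noticed earlier in these data, so its values are given with no test. Its log2 difference was 0.24 for replicate 2 against 1 (SE 0.089), -0.18 for 3 against 1 and -0.42 for 3 against 2. Replicate 2 was higher than replicate 1 in 4 of 4 constructs, and replicate 3 was lower than replicate 2 in 4 of 4.

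*ARRDC3* was highest in replicate 1, with a mean of 1218 ± 443 (SD, n = 4) against 691.1 ± 224 in replicate 2 and 686.1 ± 475 in replicate 3. The log2 differences from replicate 1 were -0.81 for replicate 2 (SE 0.19, adjusted p = 0.0092) and -0.94 for replicate 3 (adjusted p = 0.0027), lower in 4 of 4 constructs each. Replicate 3 against 2 gave -0.13 (adjusted p = 0.67), and without control replicate 3, the 1 library that goes the other way, -0.39 (adjusted p = 0.037).

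*ARRDC1* and *ARRDC2* differed between replicates as well. *ARRDC1* was higher in replicate 2 (0.30, SE 0.071, adjusted p = 0.0028) and replicate 3 (0.35, adjusted p = 0.00046) than in replicate 1, whose 4 libraries (1689 to 1987) lay below all 8 others. *ARRDC2* was higher in replicate 3 than in replicate 1 (0.41, SE 0.086, adjusted p = 0.00059) and replicate 2 (0.30, adjusted p = 0.011), and 2 against 1 gave 0.10 (adjusted p = 0.39). Replicate 3 against 2 gave 0.04 for *ARRDC1* (adjusted p = 0.69). Without control replicate 2 (0.26), control replicate 3 (0.23), gag replicate 2 (0.26) or gag replicate 3 (0.28), the difference of *ARRDC2* between replicates 3 and 2 had adjusted p from 0.052 to 0.067.

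**Figure D3:**
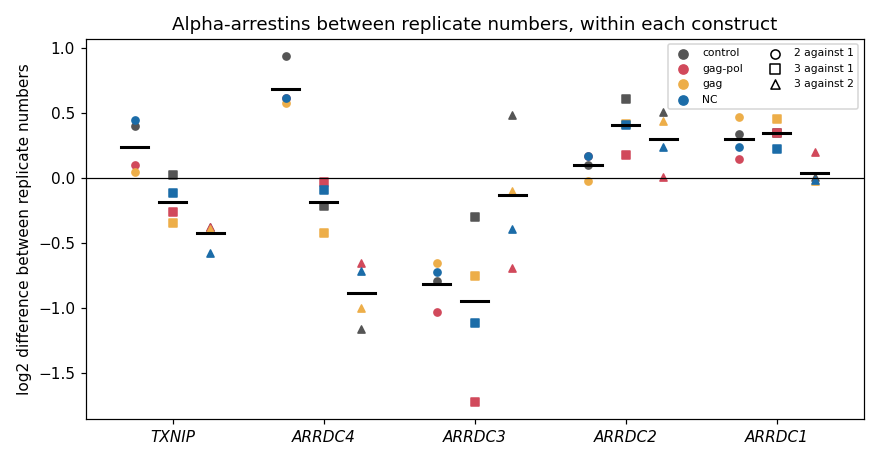
Log2 difference between replicate numbers (vertical axis) within each construct for the 5 alpha-arrestins, with circles, squares and triangles for 2 against 1, 3 against 1 and 3 against 2, colours for constructs and bars for fitted values. *ARRDC4* has all 4 constructs above 0 for 2 against 1 and all 4 below 0 for 3 against 2, *ARRDC3* lies below 0 for both comparisons with replicate 1, and *ARRDC1* lies above 0 for both.

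Per kb of exon, *ARRDC4* and *ARRDC1* were the most abundant members and *ARRDC3* the least. Over the 12 libraries the levels were 23.5 ± 8.37 CPM per kb (SD) for *ARRDC4*, 15.3 ± 1.77 for *ARRDC1*, 7.38 ± 2.23 for *TXNIP*, 6.95 ± 1.28 for *ARRDC2* and 4.62 ± 2.37 for *ARRDC3*. The lowest libraries of *ARRDC4* (11.25 CPM per kb) and *ARRDC1* (11.86) lay above the highest of *TXNIP* (10.3), *ARRDC2* (9.194) and *ARRDC3* (9.12). Neighbours within the upper pair and within the lower 3 overlapped. These are values over merged exon lengths from GENCODE 44, which may not be the annotation the counts were made with.

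In control libraries *ARRDC3* (7.26 ± 1.93 CPM per kb, SD, n = 3) and *ARRDC2* (7.16 ± 1.69) had higher means than *TXNIP* (4.43 ± 0.703). In the PEG10 groups *TXNIP* had the highest mean of these 3 genes, at 9.29 ± 1.19 in gag-pol, 8.79 ± 1.23 in gag and 6.99 ± 1.51 in NC libraries, while *ARRDC3* had the lowest, at 4.65 ± 2.8, 3.82 ± 1.14 and 2.74 ± 1.1. The place of *TXNIP* above *ARRDC2* comes with the division by exon length. As normalized counts, *ARRDC2* had means of 1278, 1325 and 993.2 with gag-pol, gag and NC, and *TXNIP* 1258, 1191 and 947.2. The sum over the family was 50.6 ± 6.9 CPM per kb in control, 65.2 ± 7.92 in gag-pol, 56.3 ± 8.02 in gag and 59.3 ± 9.86 in NC libraries. Of that sum, *ARRDC4* made up 31.7% in control and 47.2% with NC, *TXNIP* 8.75% and 11.7%, and *ARRDC3* 14.9% and 4.75%.

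**Figure D4:**
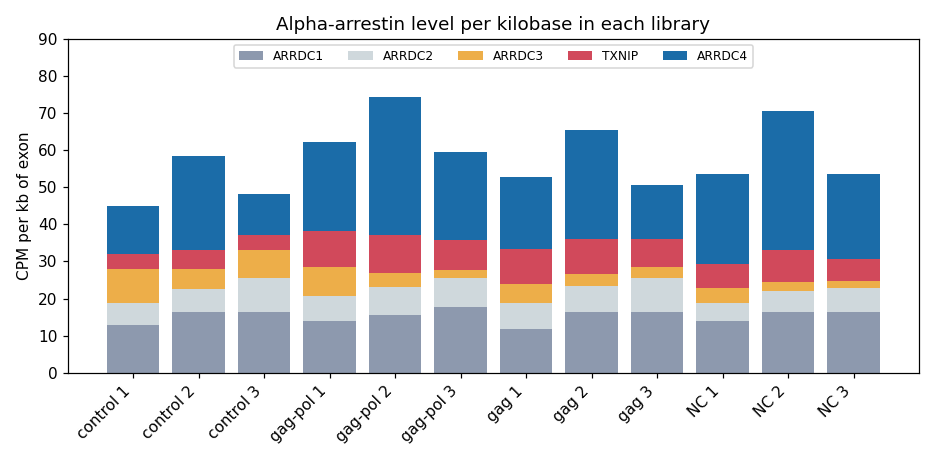
Level in CPM per kb of exon (vertical axis, from 0) of the 5 alpha-arrestins stacked in each of the 12 libraries, with 1 bar per library. *ARRDC4*, at the top of each bar, and *ARRDC1*, at the bottom, take up most of it. Within each replicate number *ARRDC3* is thinnest in the NC library. The sum runs from 45.1 in control replicate 1 to 74.2 in gag-pol replicate 2.

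The genes whose log2 CPM most resembled each member over the 12 libraries, after the mean of each replicate number was removed, were found among 13418 genes by Pearson's r. The libraries share constructs and depth, so these values only describe likeness. *TXNIP* was most like *TRIB1*, a pseudokinase gene (r = 0.97), and *LONRF3*, *ZC3H8*, *PEG10* and *PTX3* (0.96 each). *PTX3* codes for a secreted pentraxin of innate immunity, and *PEG10* counts include the transfected sequence. *ARRDC4* was most like *TTC39A* (0.99) and *SESTD1*, *PGBD5* and *PLD6* (0.98 each), of which *PLD6* codes for a mitochondrial phospholipase. *ARRDC3* was most like *FBXO46* and *EDC4* (0.96 each) and *MADD*, *QRSL1* and *TBC1D10B* (0.95 each). *ARRDC4* came only at rank 740 for *TXNIP* (r = 0.70), and *ARRDC3* had r = -0.80 with *ARRDC4* and -0.55 with *TXNIP*.

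Of 13 genes of the Mondo and MAX network, 1 rose and 1 fell with gag-pol, none was called with gag and 1 fell with NC, with median log2 differences of 0.15, 0.04 and 0.09 against 0 over all genes. Over all genes 5.48% were called higher and 5.83% lower with gag-pol, and 5.15% lower with NC. Leaving out libraries or replicate numbers gave 0 to 2 calls with gag-pol, the lowest without replicate 1, 0 to 1 with gag and 0 to 3 with NC. *MLXIP* had log2 differences of 0.03, 0.02 and -0.02 with gag-pol, gag and NC, and *MLX* -0.18, -0.07 and -0.16, none past the threshold. *MYC*, the best known MAX partner, rose with gag-pol (0.61, SE 0.16, adjusted p = 0.0338), and *MXD4*, which codes for a repressor that competes with MYC, fell with gag-pol (-0.35, adjusted p = 0.00482) and NC (-0.29, adjusted p = 0.0156).

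Of 14 further genes known to respond to glucose through MondoA or ChREBP, 5 rose and 1 fell with gag-pol, 2 rose with gag and 4 rose with NC, with median log2 differences of 0.10, 0.12 and 0.16 against 0 over all genes. For comparison, 5.48% of all genes were called higher and 5.83% lower with gag-pol, 0.699% higher with gag and 6.04% higher with NC. With gag-pol the largest called rises were *KLF11* (0.67, SE 0.12, adjusted p = 0.00142), *HK2*, the inducible hexokinase (0.44, adjusted p = 0.00277), and *KLF10* (0.42, adjusted p = 0.00397). *FGF21*, a fasting and stress hormone, fell (-1.03, SE 0.28, adjusted p = 0.0181) at 56 to 143 raw counts per library. With gag, *KLF11* (0.54, adjusted p = 0.0252) and *RGS16*, a brake on G protein signalling (0.44, adjusted p = 0.0102), rose. With NC the largest called rises were *HK2* (0.43, adjusted p = 0.00401), *SCD*, the stearoyl-CoA desaturase (0.34, adjusted p = 0.0118), and *KLF10* (0.28, adjusted p = 0.0382). When each library or replicate number was left out in turn, the calls in this list ranged from 2 to 7 for gag-pol, 0 to 3 for gag and 1 to 4 for NC, and the lowest for gag-pol was without replicate 1.

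**Figure D5:**
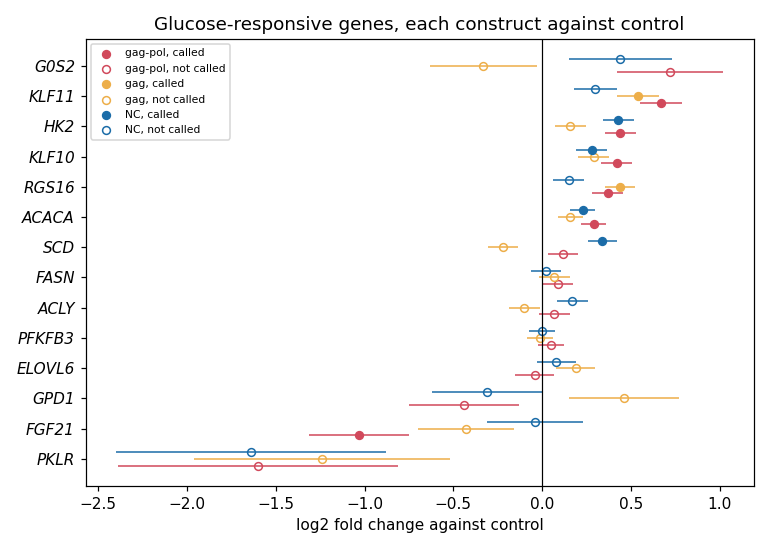
Log2 fold change against control (horizontal axis) with its SE for 14 glucose-responsive genes and each of the 3 constructs, filled where the adjusted p passed 0.05. *KLF11* has 0.67 with gag-pol and 0.54 with gag, *HK2* 0.44 with gag-pol and 0.43 with NC, and *FGF21* is the only filled point below 0.

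Genes tied to the functions of the alpha-arrestin proteins were counted in the same way. Of 21 thioredoxin system genes, 2 rose and 1 fell with gag-pol, none was called with gag, and 4 rose and 1 fell with NC, with medians of 0.02, -0.07 and 0.14. Over all genes 5.48% rose and 5.83% fell with gag-pol, and 6.04% rose and 5.15% fell with NC. Between NC and gag 9 of the 21 were higher and 1 lower with NC, against 8.76% and 8.12% of all genes. Other lists had such calls too. Of 14 glucose-responsive genes 3 were higher and 1 lower, of 12 glucocorticoid-responsive genes 1 and 4. Of 11 NEDD4 family genes 1 was higher and 3 lower. Of 10 glucose uptake genes 2 were higher, of 6 other arrestin-fold genes 1. Of 12 ESCRT genes 2 were lower, of 13 Mondo and MAX genes 1. None of 8 antisense and neighbouring genes was called. *TXN*, the thioredoxin that TXNIP inhibits, rose with gag-pol (0.31, SE 0.089, adjusted p = 0.0245) and NC (0.38, adjusted p = 0.00995), and *RRM2*, a ribonucleotide reductase subunit, rose by 0.42 (adjusted p = 0.00653) and 0.38 (adjusted p = 0.0143). *TXNRD3*, a thioredoxin reductase, rose with NC (0.57, adjusted p = 0.0113), and the mitochondrial reductase *TXNRD2* fell with gag-pol (-0.34, adjusted p = 0.0182). *NLRP3*, an inflammasome sensor that binds TXNIP, fell with NC (-2.89, SE 0.95, adjusted p = 0.05 after rounding), but it had only 0 to 33 counts in any library. When libraries or replicate numbers were left out, calls in this list ranged from 0 to 3 with gag-pol (0 without control replicate 3), 0 to 3 with gag, 0 to 5 with NC (0 without control replicate 3 or without all of replicate 2) and 0 to 11 for NC against gag (0 without replicate 1).

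Among 10 tested genes of glucose uptake and hexokinases, *HK2* was the only one called against control, with gag-pol and NC. It is the same *HK2* call as in the glucose-responsive list above. Over all genes 5.48% rose and 5.83% fell with gag-pol, and 6.04% rose and 5.15% fell with NC. *SLC2A1*, the glucose transporter that TXNIP and ARRDC4 remove from the surface, had log2 differences of -0.06, -0.04 and -0.16 with gag-pol, gag and NC, none past the threshold.

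Of 11 NEDD4 family ligases and adaptors, 1 rose with gag-pol, none was called with gag, and 1 rose and 1 fell with NC. *HECW1* rose with gag-pol (0.79, SE 0.22, adjusted p = 0.0235) and NC (0.83, adjusted p = 0.0205) at 60 to 207 counts per library, and *WWP2* fell with NC (-0.36, adjusted p = 0.00995). *NEDD4* itself had 0.00, 0.00 and 0.08 with gag-pol, gag and NC. Of 12 ESCRT genes of the ARRDC1 pathway, *UBAP1* fell with gag-pol (-0.41, adjusted p = 0.0034) and NC (-0.50, adjusted p = 0.00138), *VPS37B* rose with gag (0.42, adjusted p = 0.0474) and *VPS4A*, the ATPase that completes budding, rose with NC (0.23, adjusted p = 0.0431). *TSG101* had -0.02, -0.08 and 0.00. Over all genes 5.48% rose and 5.83% fell with gag-pol, 0.699% rose with gag, and 6.04% rose and 5.15% fell with NC. When libraries or replicate numbers were left out, calls among the NEDD4 genes ranged from 0 to 1 for gag-pol, 0 to 3 for gag and 0 to 3 for NC. Those among the ESCRT genes ranged from 1 to 2 for gag-pol, 0 to 1 for gag and 1 to 2 for NC, the call with gag being lost in 8 of 15 such fits. None of 6 other arrestin-fold genes tested was called against control.

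Since *TXNIP* also responds to steroid hormones, 12 glucocorticoid-responsive genes were counted. With gag-pol 3 rose, with gag 1 and with NC 3, and none fell, with medians of 0.12, 0.11 and 0.02. Of all genes 5.48%, 0.699% and 6.04% rose. Leaving out libraries or replicate numbers gave 1 to 3 calls with gag-pol, 1 with gag and 1 to 5 with NC, the lowest for NC without NC replicate 2 or all of replicate 2. *KLF9* rose with gag-pol (0.41, SE 0.087, adjusted p = 0.00472) and NC (0.44, adjusted p = 0.00401), and so did *DDIT4*, an mTORC1 inhibitor (0.31, adjusted p = 0.0208, and 0.37, adjusted p = 0.00962). *DUSP1*, a MAP kinase phosphatase, rose with gag-pol (0.42, adjusted p = 0.031) and gag (0.80, adjusted p = 0.0028), and *TSC22D3* rose with NC (0.32, adjusted p = 0.043). Of 8 tested antisense and neighbouring genes of the family, *ARRDC3-AS1* was called lower with gag and NC, as given above, and *POLR3GL*, which lies 13.6 kb from *TXNIP*, rose with NC (0.59, SE 0.13, adjusted p = 0.00791). Over all genes 0.384% were called lower with gag, and 6.04% higher and 5.15% lower with NC. The calls in this list ranged from 0 to 1 with gag and 0 to 2 with NC when libraries or replicate numbers were left out.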

How the data were processed

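Poly(A) RNA of 12 libraries of HEK293 cells was measured by paired-end sequencing. According to their methods, the authors mapped reads to GRCh38.p13 with STAR 2.7.3, used SAMtools 1.8 and counted reads per gene with featureCounts. The deposited values are raw counts of 26485 gene symbols, of which 3535 had no count. The annotation release and strand setting were not given in the sources used here.

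The labels gave each library's construct and replicate number. Counts were fitted with edgeR 4.0.16 in R 4.3.3 (TMM, edgeR's filter by construct with minimum count 10 and minimum total 15, robust quasi-likelihood test) in a single model of the 12 libraries with terms for construct and for replicate number and 6 residual degrees of freedom, and the biological coefficient of variation was 10.7%. The 17176 genes tested held 99.97% of the counts. P-values were adjusted over these genes by the Benjamini-Hochberg method, with a threshold of 0.05. SEs are the log2 difference divided by the square root of its F. The fit was tested on simulated data. The study's methods use harvest date and construct as terms. Here the replicate number was the block, and no date is given for single libraries: after construct means were removed, the 18 pairs of libraries with the same number correlated by 0.14 to 0.54 and the 36 pairs with other numbers by -0.50 to 0.07. No 2 replicates agreed within sampling noise (chi-square per degree of freedom 33 to 110). The paper calls these samples biological replicates, but does not say whether each came from a separate culture. P-values thus measure only the spread between these samples of 1 line, part of which may be technical. The planned test of *TXNIP* between replicate numbers is not printed, since that difference had been seen earlier.

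For normalized counts, each count was divided by its library's TMM effective size, then rescaled to the average library total. CPM per kb divides TMM-scaled CPM by merged exon bases from GENCODE 44. Genes were matched to it and to RefSeq promoters by symbol, all 5 members in both. The deposited table holds no coordinates, and those printed are of GRCh38. Likeness used log2 CPM with a prior count of 2, for genes with a mean of at least 1. Members, the 9 lists (115 genes) and tests were chosen with earlier results of these data known. Named are all members, in each list at most 3 called genes per direction and comparison with control by size, and the 5 genes most like each of *TXNIP*, *ARRDC3* and *ARRDC4*, of which 1 is not reported here. *PEG10* was named as the check of the labels. *MLXIP*, *MLX*, *SLC2A1*, *NEDD4* and *TSG101* fall outside this rule and were chosen for their known roles after their values had been seen. Alternatives were DESeq2 1.42.0, other scalings and filters, no robust estimation, only the compared groups, no replicate term, thinned counts, *PEG10* left out and each library or replicate number left out. Figures were drawn with matplotlib 3.10.9 in Python 3.11.15.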

Additional observations from a re-analysis of the deposited data

How the results depend on the processing

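Directions of the members held in all alternatives for every called value, and values given without a test kept their sign. Without the replicate block, which pairs libraries of a number, the counts of genes called were 2 for each construct against control, 0 for gag-pol against gag, 1 for NC against gag and 1 for NC against gag-pol (main counts 1942, 186, 1922, 1109, 2898 and 15). Every call of a member between constructs was lost: *ARRDC4* had 0.78 (adjusted p = 0.62), 0.36 (1) and 0.78 (0.68) for gag-pol, gag and NC against control, 0.41 (0.81) for gag-pol against gag and 0.42 (0.64) for NC against gag, *ARRDC2* had -0.33 (0.68) for NC against control and -0.42 (0.44) for NC against gag, and *TXNIP* -0.33 (0.51) for NC against gag. With only the 6 libraries compared, *TXNIP* had -0.33 (0.059) for NC against gag, and 1131 genes were called for gag-pol against control, 344 for gag against control, 2628 for gag-pol against gag and 44 for NC against gag-pol. DESeq2 called 443 genes for gag against control and 124 for NC against gag-pol, and without a filter edgeR called 373 and 129. For NC against gag-pol, upper-quartile factors gave 8, a filter of at least 10 counts 9 and no robust estimation 25. *TXNIP* in NC against gag-pol passed with DESeq2 (-0.42, adjusted p = 0.022) and without a filter (-0.42, 0.028). *ARRDC4* with gag missed without robust estimation (0.39, 0.053). *TXNIP* in replicate 2 against 1, given with no test, had 0.22 with upper-quartile factors and with thinned counts. *ARRDC4* in replicate 3 against 1 passed with upper-quartile factors (-0.21, 0.037) and without a filter (-0.19, 0.042). The causes were not tested.

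Leaving out 1 library or replicate number at a time, counts ran from 422 to 2445 for gag-pol against control, 22 to 731 for gag against control, 367 to 2369 for NC against control, 12 to 1849 for gag-pol against gag, 342 to 3556 for NC against gag, 0 to 534 for NC against gag-pol and 3263 to 6184 for replicate 2 against 1. Without replicate 1 the counts for gag-pol and gag against control and for gag-pol and NC against gag were lowest (422, 22, 12 and 342). Member values ran from 0.29 to 0.52 for *ARRDC4* and -1.11 to -0.63 for *ARRDC3* in gag against control, -0.37 to -0.22 for *ARRDC2* in NC against control, 0.32 to 0.53 for *ARRDC4* in gag-pol against gag, -0.44 to -0.22 for *TXNIP* and -0.47 to -0.37 for *ARRDC2* in NC against gag, -0.49 to -0.29 for *ARRDC2* in NC against gag-pol, 0.18 to 0.31 for *TXNIP* in replicate 2 against 1, -0.25 to -0.13 for *ARRDC4* in replicate 3 against 1, and 0.23 to 0.39 for *ARRDC2* and -0.39 to 0.07 for *ARRDC3* in replicate 3 against 2. Without division by exon length *TXNIP* moved from place 3 to 4 among the members.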
